A study of Mus musculus with 4 samples.

Results

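The genes of cholesterol and fatty acid synthesis were followed through single-cell RNA sequencing (scRNA-seq) of the mouse testis. They were 38 genes named for their place in these pathways, and all 38 were among the 18419 genes of the deposited table. The 4 groups were ICR male mice aged 3 weeks at the start. A0 received the vehicle ddH2O alone, and A10 received alginate oligosaccharides (AOS, sugar chains cut from seaweed alginate) at 10 mg/kg by mouth. B0 received a single dose of busulfan, an alkylating anti-cancer drug toxic to germ cells, at 40 mg/kg and then vehicle, and BA10 received the same busulfan dose and then AOS at 10 mg/kg. The testis cells of 6 mice were pooled into 1 library for each of these groups, so the spread between mice was not measured and no comparison could be tested. Every interval given here is a 95% interval for counting error only.

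Cells build cholesterol from acetyl-CoA through mevalonate, farnesyl diphosphate, squalene and lanosterol, and fatty acids from the same acetyl-CoA through malonyl-CoA. When membranes run low in sterol, SCAP carries the SREBP factors out of the endoplasmic reticulum to switch on these genes, and INSIG1 holds them back. In the testis, cholesterol is the starting material of testosterone in Leydig cells, while germ cells make and remodel sterols and long unsaturated fatty acids as spermatids form.

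The table held 4659 cells of B0, 3778 of BA10, 8941 of A0 and 9682 of A10, with 25323535 to 150812974 unique molecular identifiers (UMIs, 1 per captured transcript) in a library. Levels are UMIs per 1000000 UMIs (CPM), summed over the cells of a library or class. The libraries stood apart in depth and in cell types before any lipid gene was considered. The shallowest cell kept had 2985 UMIs in B0 but 9013 in BA10, 7687 in A0 and 6716 in A10. The 8 Leydig markers together were at 15307 CPM in B0, 426 in BA10, 8.26 in A0 and 10.8 in A10, and the 10 spermatid markers at 283 CPM in B0, 1246 in BA10, 41627 in A0 and 47966 in A10. The 9 Sertoli markers were at 2255 CPM in B0, 229.9 in BA10, 40.9 in A0 and 42.6 in A10, and the 8 macrophage markers at 559 CPM in B0, 53.8 in BA10, 14.4 in A0 and 11.4 in A10. Leydig cells lie outside the tubules, and the study describes its samples as tubule cells, yet Leydig-like cells made up 64.5% of B0, 3.12% of BA10 and 0.0559% of A0. These shares were taken after cell limits that differed between libraries. The study itself places most cells of B0 in a joint cluster of Leydig and Sertoli cells. No marker of these lists was at 0 in any library. Of the cell barcodes, 374 occurred in at least 2 libraries, and whether this exceeds the number shared by chance was not tested. In a library sum, more cells of a type and more RNA per cell cannot be told apart.

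The promoters of 4 of the genes are shown because the results below turn on them. Cyp51, Hmgcs1 and Insig1 were higher in spermatid-like than in spermatocyte-like cells of A0, and Fasn was at a similar level in Leydig-like and Sertoli-like cells of B0. All 4 were higher in Leydig-like than in SPC-like cells of B0. Each run is the 250 bases before the RefSeq transcription start, 5′ to 3′ in the sense of the gene, in build GRCm38.p6. Capitals mark the sterol regulatory element (SRE, searched as TCACNCCAC), the CCAAT box (CCAAT) and the core of the cAMP response element (CRE core, TGACG), each on both strands. Cyp51 is at chr5:4104698-4104947 and Fasn at chr11:120824548-120824797, both on the minus strand. Hmgcs1 is at chr13:119690101-119690350 and Insig1 at chr5:28071162-28071411, both on the plus strand.
Cyp51: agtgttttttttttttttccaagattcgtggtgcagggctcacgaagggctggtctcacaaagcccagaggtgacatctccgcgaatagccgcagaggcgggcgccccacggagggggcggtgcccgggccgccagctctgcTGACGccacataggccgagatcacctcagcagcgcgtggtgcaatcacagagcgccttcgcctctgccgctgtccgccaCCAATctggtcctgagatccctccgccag
Hmgcs1: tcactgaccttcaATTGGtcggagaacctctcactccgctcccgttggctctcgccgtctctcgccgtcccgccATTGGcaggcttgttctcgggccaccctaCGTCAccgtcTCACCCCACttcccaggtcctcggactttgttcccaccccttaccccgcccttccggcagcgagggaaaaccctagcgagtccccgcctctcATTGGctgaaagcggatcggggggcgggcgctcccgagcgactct
Insig1: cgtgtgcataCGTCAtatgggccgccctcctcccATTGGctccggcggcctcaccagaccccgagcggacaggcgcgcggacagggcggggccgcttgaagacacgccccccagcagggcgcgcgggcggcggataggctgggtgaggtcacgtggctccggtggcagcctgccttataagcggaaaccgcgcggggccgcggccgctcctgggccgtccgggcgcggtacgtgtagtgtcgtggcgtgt
Fasn: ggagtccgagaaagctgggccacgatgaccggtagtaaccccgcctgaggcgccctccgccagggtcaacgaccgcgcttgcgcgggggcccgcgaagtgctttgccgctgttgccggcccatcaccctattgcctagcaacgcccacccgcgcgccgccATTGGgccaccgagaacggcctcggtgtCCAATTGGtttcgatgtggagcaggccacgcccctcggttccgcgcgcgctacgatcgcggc

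RefSeq promoters were matched for 29 of the 38 genes, and the search covered 300 bases from 250 before to 50 after the start, with a gene counted where any of its starts held the motif. The CCAAT box occurred in 22 of the 29 genes and 41.1% of all 27025 genes. The GC box (GGGCGG), the core of Sp1 binding sites, occurred in 24 of the 29 genes and 38.2% of all 27025 genes. The exact SRE letters occurred in 1 of the 29 genes and 1.44% of all 27025 genes, the gene being Hmgcs1, where they began 137 bases before the start. The CRE core occurred in 10 of the 29 genes and 23.0% of all 27025 genes. Cyp51 had it at 108 bases, Hmgcs1 at 147 bases and Insig1 at 240 bases before the start. The other genes with it were Ebp, Elovl5, Hsd17b7, Nsdhl, Sc5d, Soat1 and Srebf2. Of these, Sc5d and Soat1 were lower past 2-fold in spermatid-like than in spermatocyte-like cells of A0. Elovl6 and Fads6, higher in spermatid-like cells, lacked it. The full CRE (TGACGTCA), which contains that core, occurred in 1 of the 29 genes and 2.03% of all 27025 genes, the gene being Elovl5. The E-box (CACGTG) occurred in 7 of the 29 genes and 8.09% of all 27025 genes. These counts describe letters in a window and not bound sites. Genes whose values recur below lie, in mm10, at chr5:4081145-4104746 (Cyp51), chr14:63145150-63179578 (Fdft1), chr15:59315077-59331192 (Sqle), chr19:44293674-44306864 (Scd2) and chr1:156424525-156474331 (Soat1), all protein-coding, by the GENCODE annotation.

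**Figure D1:**
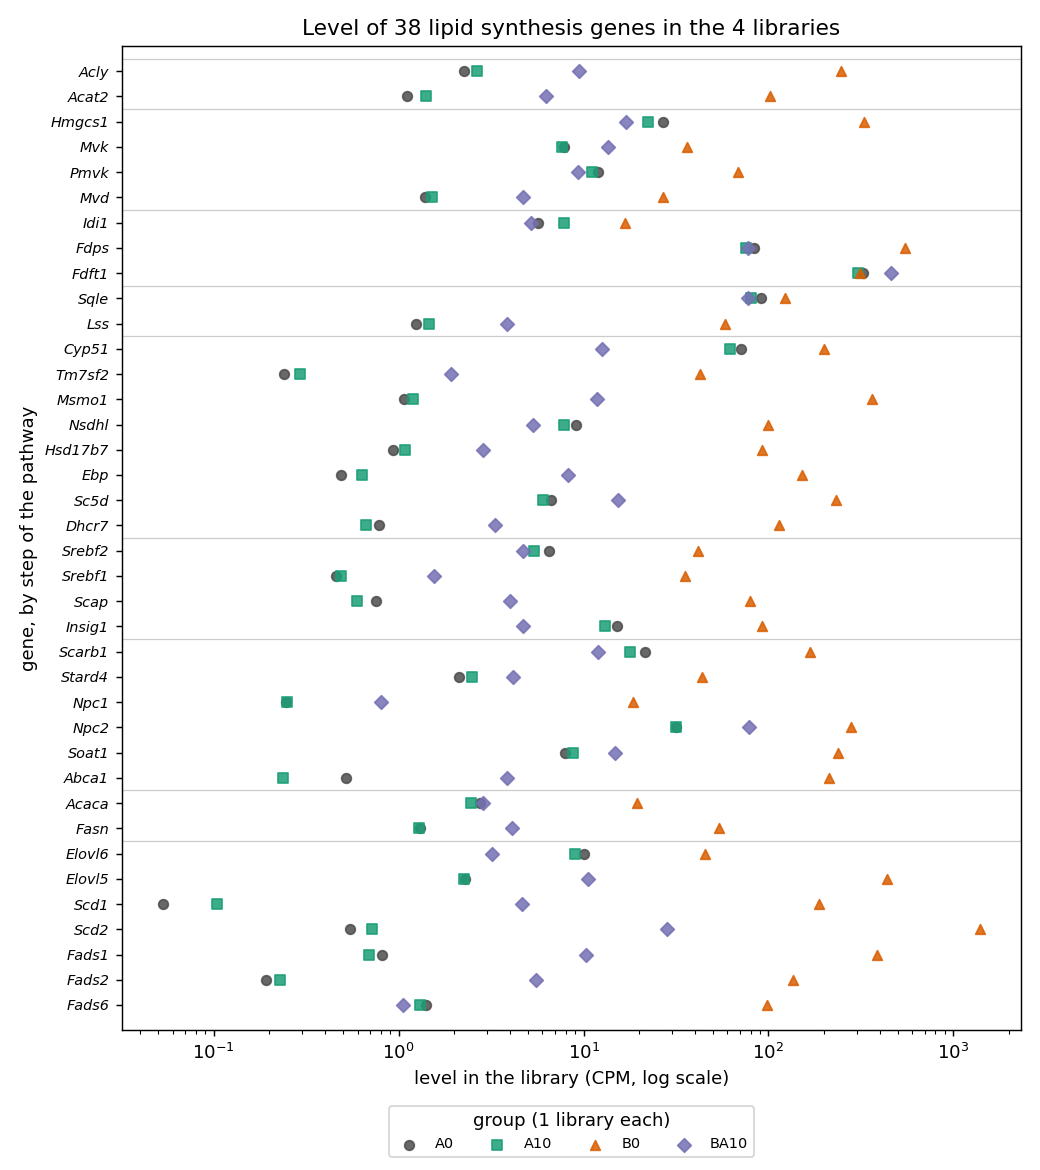
Level of each of the 38 genes in each library, in CPM on a log axis, with 1 symbol per library and grey lines between steps of the pathway. B0 lies to the right of the other libraries for 37 genes, and for Fdft1 the highest symbol is BA10, at 462 CPM.

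The levels in the normal testis were first examined by germ cell stage. Cells were clustered without the lipid genes, and the clusters were named from marker genes as spermatocyte-like (SPC-like) or spermatid-like (ST-like). In A0, 3193 SPC-like and 5731 ST-like cells were compared. Cyp51, the lanosterol demethylase, was at 12.3 CPM in SPC-like cells (interval 11.4 to 13.2) and at 109.7 CPM in ST-like cells (interval 108 to 112), a log2 ratio of 3.06 with 1 CPM added to each level. The corresponding log2 ratio within A10 was 3.13.

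In A0, 9 of the 38 genes were higher past 2-fold in ST-like cells (log2 ratio of at least 1) and 4 were lower, against 18.9% and 30.2% of the 13615 tested genes. The median log2 ratio was -0.065 over the 38 genes and -0.33 over all tested genes, with genes of several steps on either side. After Cyp51 came Elovl6, the elongase of saturated fatty acids, with a log2 ratio of 2.11, and Insig1, which retains the SREBP complex, with 2.10. The sterol dehydrogenase Nsdhl had 1.81, the lipoprotein receptor Scarb1 1.49 and Hmgcs1, which makes HMG-CoA, 1.36. Fads6, a predicted desaturase, had 1.28, the polyunsaturated fatty acid elongase Elovl5 1.16, and Srebf2, which encodes the SREBP factor of the sterol genes, 1.07. The 4 lower genes were Soat1, which stores cholesterol as esters (-1.90), the late sterol desaturase Sc5d (-1.61), the mevalonate enzyme Mvd (-1.49) and the lysosomal cholesterol carrier Npc2 (-1.17).

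The same contrast in A10 gave 8 higher and 7 lower genes, against 18.5% and 29.7% of all tested genes. Fads6 fell just short of 2-fold there at 0.99, and Acly, Acat2 and Stard4 passed it on the lower side at -1.08, -1.25 and -1.24. In A0 these last values were -0.91, -0.95 and -0.97, close to the threshold in both libraries.

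**Figure D2:**
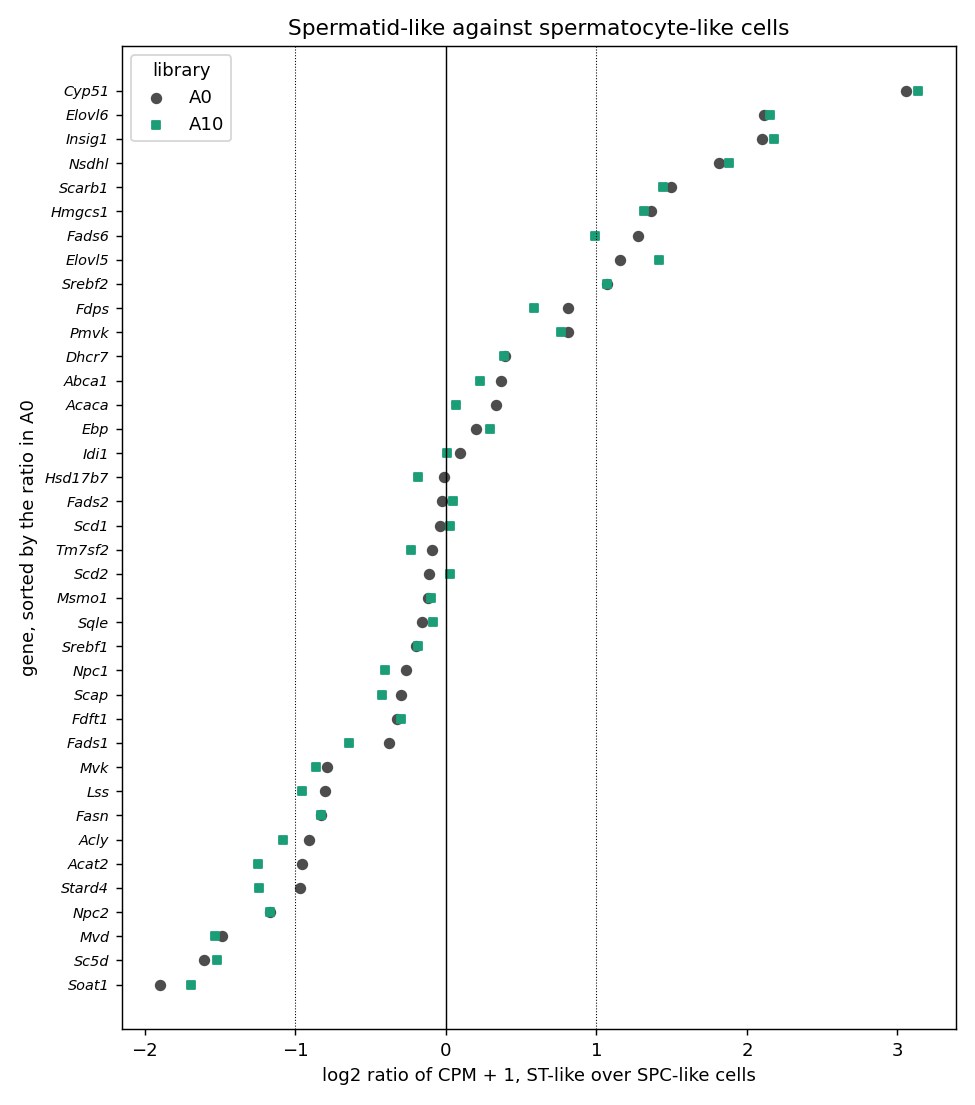
Log2 ratio of ST-like over SPC-like cells for each gene within A0 and within A10, sorted by A0, with dotted lines at 2-fold. Cyp51 (3.06 in A0) is at the top and Soat1 (-1.90 in A0) at the bottom in both libraries.

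The 18 germ cell clusters with at least 50 cells in A0 differed in which enzymes were at their highest, and the consecutive enzymes Fdps and Fdft1 did not peak in the same cluster. Fdft1, the squalene synthase, ranged from 39.5 CPM in ST-like cluster 25 to 479 CPM in SPC-like cluster 10. Fdps, which makes the farnesyl diphosphate that Fdft1 consumes, ranged from 12.2 CPM in cluster 25 to 288 CPM in ST-like cluster 7. In cluster 7, where Fdps was at its highest, Fdft1 was at 197 CPM, below its 479 CPM in cluster 10. Cyp51 was also highest in cluster 7, at 238 CPM, and lowest in SPC-like cluster 23, at 4.28 CPM. Insig1 and Nsdhl were highest in cluster 7 too, at 75.3 and 29.7 CPM, while Soat1 was highest in SPC-like cluster 11 at 23.2 CPM and stood at 0.929 CPM in cluster 7. Of the 38 genes, 22 had their highest cluster among the 7 SPC-like clusters and 16 among the 11 ST-like clusters of A0, against 60.1% and 39.9% of all tested genes. Some of these rested on low levels, such as Scd1, Npc1 and Fads2, whose highest clusters were below 1 CPM. The highest cluster was the same in A10 for 22 genes.

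AOS alone was compared with vehicle through A10 and A0. None of the 38 genes passed 2-fold in either direction, against 0.0294% of all tested genes higher and 0.0808% lower. The median log2 ratio was -0.025 for the 38 genes and -0.018 for all tested genes. Idi1, the isopentenyl diphosphate isomerase, was at 16.8 CPM in B0, 5.18 in BA10, 5.68 in A0 and 7.79 in A10. Its log2 ratio of A10 over A0 was 0.40 (interval 0.33 to 0.59), the upper end of the list. In SPC-like cells its ratio was 0.45 and in ST-like cells 0.36. At the lower end, the cholesterol exporter Abca1 had -0.30 on 78 UMIs in A0 and 34 in A10. No gene passed 2-fold in SPC-like cells either, against 0.0441% of all tested genes higher and 0.0734% lower, or in ST-like cells, against 0.0294% and 0.0588%. Medians in these classes were -0.027 and -0.073. Among cells with at least 9013 UMIs, a limit chosen to match the lowest depth of any BA10 cell, the count was again 0, against 0.0294% and 0.0661%. Whether these differences exceed those between mice was not tested.

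Busulfan alone was compared with vehicle through B0 and A0. Over whole libraries, 36 of the 38 genes were higher past 2-fold in B0 and none was lower, against 43.5% of all tested genes higher and 19.9% lower. The median log2 ratio was 4.61 for the 38 genes and 0.58 for all tested genes. Both exceptions are consecutive enzymes around squalene. Fdft1, which makes squalene, was at 314 CPM in B0, 462 in BA10, 323 in A0 and 307 in A10. Sqle, which oxidises squalene, was at 123 CPM in B0, 77.7 in BA10, 91.5 in A0 and 80.4 in A10. Their log2 ratios of B0 over A0 were -0.038 and 0.42. In the SPC-like cells of A0, Fdft1 was at 367 CPM and Sqle at 97.7 CPM.

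Over whole libraries, Acly, Acat2 and the early mevalonate enzymes were all higher in B0. Acly, which splits citrate to acetyl-CoA, was at 248 CPM in B0, 9.51 in BA10, 2.26 in A0 and 2.66 in A10. Acat2, which joins acetyl-CoA units, was at 102 CPM in B0, 6.23 in BA10, 1.11 in A0 and 1.41 in A10. For both genes A0 and A10 were lowest, BA10 was next and B0 was far above. Hmgcs1 was at 329 CPM in B0, 17.1 in BA10, 26.8 in A0 and 22.4 in A10, so that BA10 here lay below A0. The log2 ratios of B0 over A0 were 6.26 for Acly, 5.61 for Acat2 and 3.57 for Hmgcs1. The mevalonate kinase Mvk, the next kinase Pmvk and the decarboxylase Mvd had 2.08, 2.42 and 3.55. Fdps was at 544 CPM in B0, 77.1 in BA10, 83.5 in A0 and 75.7 in A10 and had 2.69, and Idi1 had 1.42.

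All 8 genes from lanosterol to cholesterol were higher in B0, with a median log2 ratio of 5.37. Msmo1, the sterol C4 methyl oxidase, was at 364 CPM in B0, 11.8 in BA10, 1.07 in A0 and 1.20 in A10. Cyp51 was at 199 CPM in B0, 12.7 in BA10, 71.3 in A0 and 62.2 in A10. Ebp, the sterol isomerase, was at 151 CPM in B0, 8.20 in BA10, 0.491 in A0 and 0.633 in A10. B0 was the highest library for all of these, but A0 was lowest for Msmo1 and Ebp and second for Cyp51. Their log2 ratios of B0 over A0 were 7.46, 1.46 and 6.67, the one for Cyp51 being the smallest of the step. The lanosterol synthase Lss, which closes the ring just before, had 4.73. Dhcr7, a terminal sterol reductase, had 6.02, Hsd17b7 5.59, Tm7sf2 5.14, Sc5d 4.92 and Nsdhl 3.30, enzymes that act on the intermediate sterols.

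The sterol sensors were also higher in B0, with log2 ratios of 2.51 for Srebf2, 4.64 for Srebf1, 5.53 for Scap and 2.52 for Insig1. Among the genes of uptake, transport and storage, Abca1 was at 212 CPM in B0, 3.87 in BA10, 0.517 in A0 and 0.237 in A10. Soat1 was at 239 CPM in B0, 14.8 in BA10, 7.90 in A0 and 8.81 in A10. Npc2 was at 278 CPM in B0, 78.9 in BA10, 31.6 in A0 and 31.6 in A10. B0 was highest for each, and BA10 came next, above A0 and A10. The log2 ratios of B0 over A0 were 7.13, 4.75 and 3.10, and those of Scarb1, the sterol carrier Stard4 and the lysosomal exporter Npc1 were 2.90, 3.85 and 3.98.

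Among the 38 genes, the 7 of elongation and desaturation were the step with the highest median log2 ratio, 7.07. Other genes of this step, outside the 38, are not part of that median. Scd2, a stearoyl-CoA desaturase that makes monounsaturated fatty acids, was at 1387 CPM in B0, 28.1 in BA10, 0.544 in A0 and 0.717 in A10. Its log2 ratio of B0 over A0 was 9.81, the largest of the 38. Fads1, the delta-5 desaturase, was at 386 CPM in B0, 10.3 in BA10, 0.816 in A0 and 0.689 in A10. Elovl5 was at 438 CPM in B0, 10.6 in BA10, 2.27 in A0 and 2.25 in A10. Scd2, Fads1 and Elovl5 were lowest in both libraries without busulfan and intermediate in BA10. Elovl6 and Fads6 were instead lowest in BA10. Elovl6 was at 10.1 CPM in A0, 9.01 in A10 and 3.20 in BA10, and Fads6 at 1.41, 1.31 and 1.05 CPM. Fads1 and Elovl5 had log2 ratios of 7.74 and 7.07, and Scd1, Fads2, Fads6 and Elovl6 had 7.48, 6.85, 5.37 and 2.07. Scd1 rested on 8 UMIs in A0 against 187 CPM in B0. Fasn, the fatty acid synthase, and Acaca, which makes its malonyl-CoA, had 4.57 and 2.45.

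The levels were next compared between the cell classes of B0. All 38 genes were higher past 2-fold in the 3005 Leydig-like than in the 232 SPC-like cells of B0 (181 of them in cluster 27 and 51 in cluster 9), against 28.4% of all tested genes, with a median log2 ratio of 3.97 against 0.004. Scd2 was at 2440.4 CPM in Leydig-like and 47.2 CPM in SPC-like cells. Msmo1 was at 641 and 13.1 CPM, and Fads1 at 678 and 20.0 CPM. Leydig-like cells were not the highest class of B0 for every gene. Idi1 was at 16.2 CPM in them (interval 14.1 to 18.5), 26.6 in the 88 ST-like cells (interval 17.8 to 38.1) and 23.0 in the 845 unnamed cells (interval 19.6 to 26.8). For Fdft1 the Leydig-like cells were slightly above these 2 classes, at 359.8 CPM against 333 in the ST-like and 324 in the unnamed cells. Against SPC-like cells, the smallest ratios were those of Acaca (1.23), Npc2 (1.51) and Fdft1 (1.69). When every cell was thinned to 2985 UMIs, Scd2 had a UMI in 99.0% of Leydig-like and 19.0% of SPC-like cells of B0, and in 0.188% of SPC-like cells of A0. Unthinned, these shares were 99.8%, 32.8% and 0.658%, at median depths of 4054, 5326 and 12277 UMIs. Insl3, a hormone gene of Leydig cells, had a UMI in 36.2% of the thinned SPC-like cells of B0 and 0.157% of those of A0, so a Leydig transcript was read in many SPC-like barcodes of B0.

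**Figure D3:**
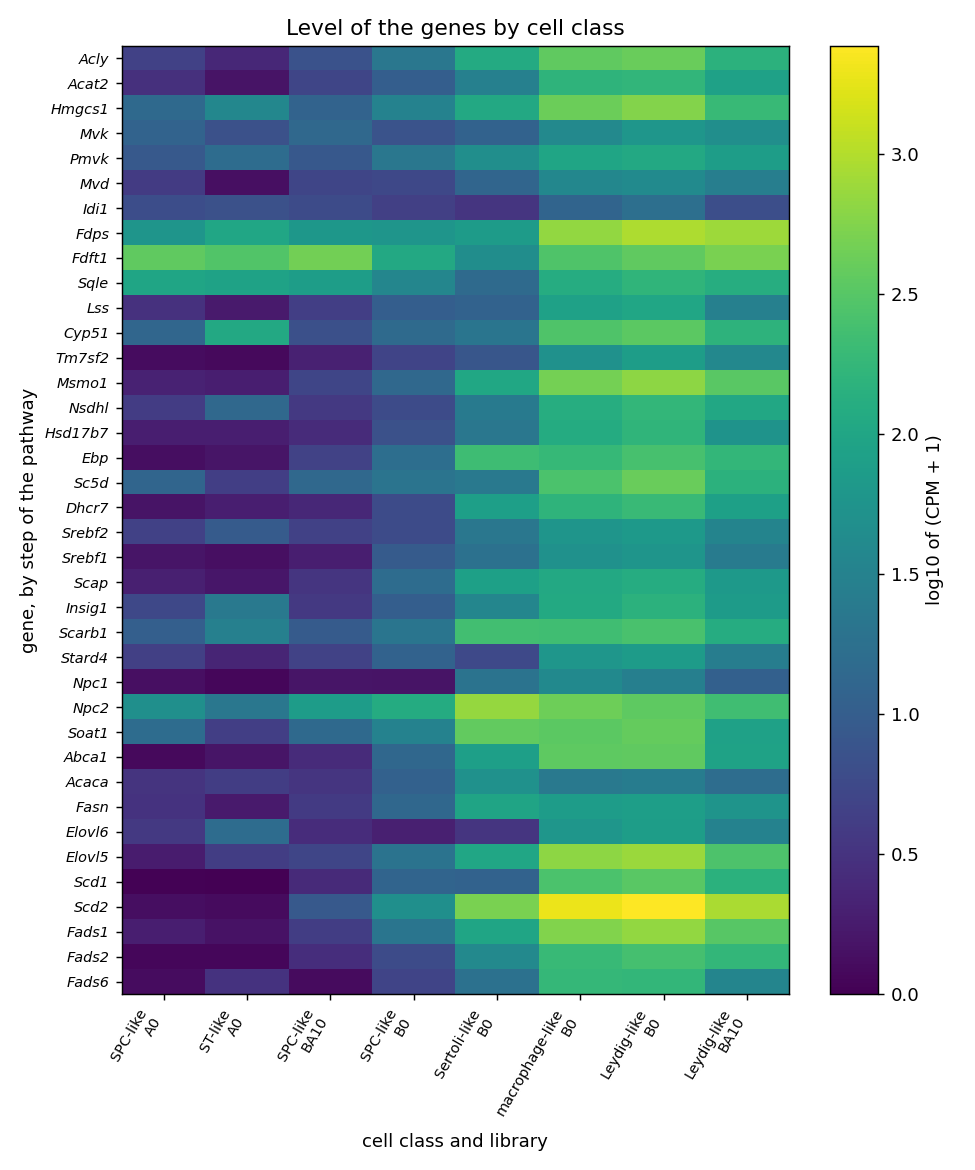
Level of each gene by cell class and library, as the log10 of CPM plus 1, with rows in pathway order. The Leydig-like and macrophage-like columns of B0 are bright for most genes. The Leydig gene Insl3 had a UMI in 100% of these macrophage-like cells after thinning to 2985 UMIs. Fdft1 is brighter in germ cells of BA10 than in Leydig-like cells of B0, and Npc2 is brightest in Sertoli-like cells at 717 CPM.

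The 198 Sertoli-like cells of B0 had another profile of these genes. Compared with them, Leydig-like cells had 30 genes higher past 2-fold and 1 lower, against 14.1% and 22.4% of all tested genes. The gene that was lower was Npc2, at 717 CPM in Sertoli-like and 349 CPM in Leydig-like cells. Soat1 was at 379 CPM (interval 339 to 423) against 383 CPM (interval 372 to 394), and Fasn at 93.3 against 77.5 CPM. Both fatty acid synthesis genes, the receptor Scarb1 and the isomerase Ebp stayed within 2-fold between these classes. The highest ratios were those of Scd1 at 4.85, Elovl6 at 4.55, Sc5d at 4.15 and Cyp51 at 4.03. Sqle was at 14.0 against 163 CPM, Sc5d at 22.2 against 410.0 CPM and Cyp51 at 19.8 against 339.5 CPM.

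Insl3 was at 216 CPM in the Sertoli-like cells, against 11853 CPM in Leydig-like cells. After thinning to 2985 UMIs, 47.0% of the Sertoli-like cells had an Insl3 UMI. The part of Leydig RNA in their levels was not tested. In the proportion of Insl3, Leydig RNA would bring 6.36 CPM of Npc2, 6.97 of Soat1 and 1.41 of Fasn, beside 717, 379 and 93.3 CPM measured. For Scd1 it would bring 6.04 CPM beside 10.5 (interval 4.80 to 19.9), and for Elovl6 1.40 beside 2.33 CPM (interval 0.283 to 8.43). In all, 34 of the 38 genes had intervals above the level so expected, the others being Idi1, Stard4, Elovl6 and Scd1. In the 291 macrophage-like cells Insl3 was at 10092 CPM, and 100% of them had an Insl3 UMI after thinning. Whether they were doublets, Leydig cells or macrophages with Leydig RNA carried over was not tested. None of the 38 genes differed past 2-fold between them and Leydig-like cells, against 2.39% and 6.10% of all tested genes. Leydig RNA in that proportion would bring a level within the interval for 28 genes and above it for 6. The interval lay above it for Npc2, at 433 CPM beside 297, and for Npc1, Abca1 and Fads6.

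The difference between B0 and A0 depended on the UMI limit of the cells. Only 448 of the 4659 cells of B0 had at least 9013 UMIs, the lowest depth kept in BA10, and of the 2971 cells in the larger Leydig-like cluster of B0 only 4 did. Among cells at or above this limit, 23 genes were higher past 2-fold in B0 than in A0 and 1 was lower, against 23.1% and 8.94% of all tested genes. The median log2 ratio was then 1.71 for the 38 genes and 0.40 for all tested genes. The 4 mevalonate genes had a median of 0.41, with 1 of them past 2-fold, Mvd at 1.44, and Hmgcs1, Mvk and Pmvk at 0.47, 0.35 and 0.23. Scd2 had 5.94, Scd1 3.98, Fads1 3.96, Msmo1 3.89 and Ebp 3.69. The gene that was lower was Cyp51, which turned from 1.46 to -1.22, and Fdps, Nsdhl, Insig1, Scarb1 and Elovl6 also turned from past 2-fold higher to below 0, at between -0.65 for Insig1 and -0.022 for Scarb1. Sqle and Fdft1, which had not passed 2-fold, changed sign too, to -0.015 and 0.063. ST-like cells made up 64.1% of all cells of A0 and 1.89% of those of B0, and the part of this share in the sign changes was not tested.

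**Figure D4:**
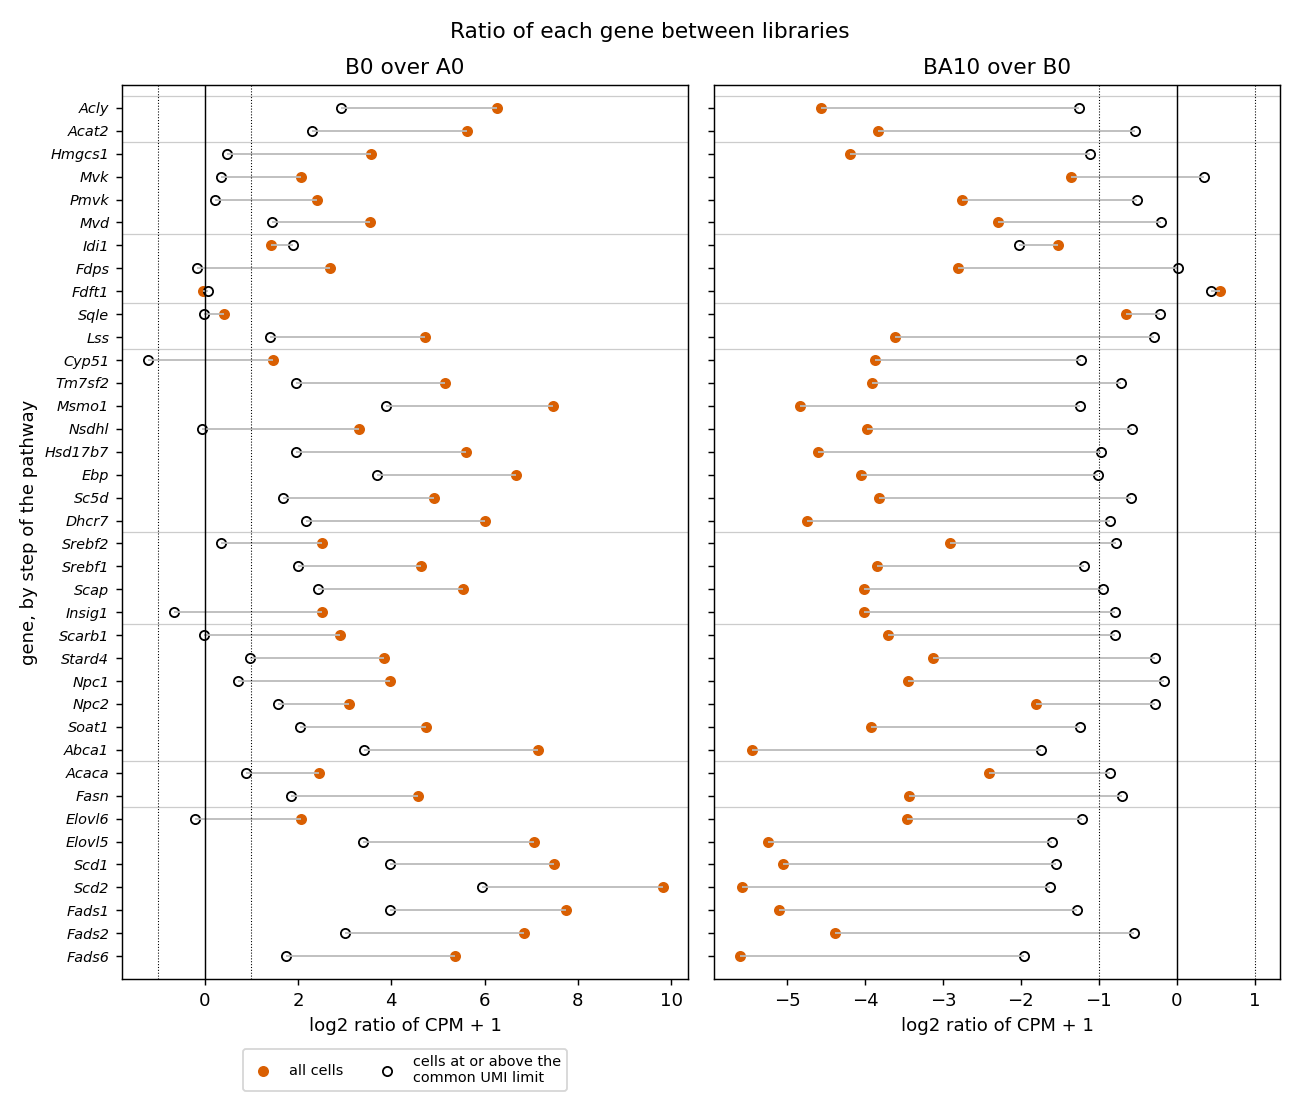
Log2 ratio of each gene for B0 over A0 and for BA10 over B0, from all cells (filled) and from cells with at least 9013 UMIs (open), with dotted lines at 2-fold. Most open symbols lie much nearer to 0 than the filled ones: the median moves from 4.61 to 1.71 for B0 over A0 and from -3.85 to -0.82 for BA10 over B0.

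AOS after busulfan was compared with busulfan alone through BA10 and B0, a comparison that shares B0 with the one before. Of the 38 genes, 36 were lower past 2-fold in BA10 and none was higher, against 39.9% of all tested genes lower and 14.9% higher. The median log2 ratio was -3.85 for the 38 genes and -0.45 for all tested genes. Fads6, Scd2 and Abca1 had the lowest log2 ratios, -5.60, -5.58 and -5.45. By step, the medians ran from -5.10 for elongation and desaturation, -4.20 for Acly and Acat2 and -4.01 for lanosterol to cholesterol to -1.53 for the isoprenoid genes. The genes not past 2-fold were Fdft1, at 0.55 (interval 0.52 to 0.59), and Sqle, at -0.65 (interval -0.72 to -0.60). Among cells at or above 9013 UMIs, 15 genes were lower and none higher, against 15.1% and 0.977% of all tested genes, with medians of -0.82 and -0.28. In those cells 6 of the 7 elongation and desaturation genes were still lower past 2-fold, Fads2 being the exception at -0.55, and Idi1 had the lowest log2 ratio, -2.03. Mvk and Fdps changed sign, to 0.34 and 0.018. The share of Leydig-like cells moved the same way, from 64.5% to 3.12%, and its part in these ratios cannot be told apart from levels per cell over whole libraries.

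Within Leydig-like cells the difference was far smaller. The class held 118 cells in BA10, 45 of them in the larger cluster that held 2971 of the 3005 cells of B0. The rest were in a small cluster that also carried germ cell transcripts. In the larger cluster, the spermatid gene Prm1 was at 3.80 CPM in B0 and 35.3 in BA10, and the spermatocyte gene Sycp3 at 18.5 and 37.5 CPM, and the part of germ cell RNA in the ratios below was not tested. Over the whole class, 21 genes were lower past 2-fold and none was higher in BA10, against 21.1% and 26.8% of all tested genes, with a median of -1.08. With other clusterings this median was between -1.42 and -0.27. In the larger cluster alone only 4 were lower and none higher, against 16.5% and 12.2%, and the median was -0.20 for the 38 genes and -0.12 for all tested genes. This last cluster was set apart after the class values were seen. Its cells differed in depth, with median UMIs of 4048 in B0 and 9466 in BA10.

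The genes in that cluster had ratios on either side of 0. Soat1 was at 388 CPM in B0 and 128 CPM in BA10, a log2 ratio of -1.59. Fads6 went from 174 to 72.9 CPM, with -1.25 (interval -1.80 to -0.76). Stard4 and Idi1 were the other 2 genes lower past 2-fold, with -1.11 and -2.42, the latter on 1 UMI in BA10. Fdps, in contrast, was at 948 CPM in B0 and 1484 CPM in BA10, with 0.65 (interval 0.53 to 0.76), and Fdft1, Ebp and Fads2 also had intervals above 0, at 0.55, 0.55 and 0.48. Intervals lay below 0 for 15 genes and above 0 for 4, against 10.8% and 12.6% of all tested genes. Scd2 had -0.40 and Hmgcs1 -0.86, both within 2-fold. Of the Leydig markers, Insl3 had -0.91 and Star, which brings cholesterol into mitochondria, -0.12, while Cyp11a1, which cuts the cholesterol side chain, had 0.65 and the steroid enzymes Cyp17a1 and Hsd3b1 0.30 and 0.30.

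**Figure D5:**
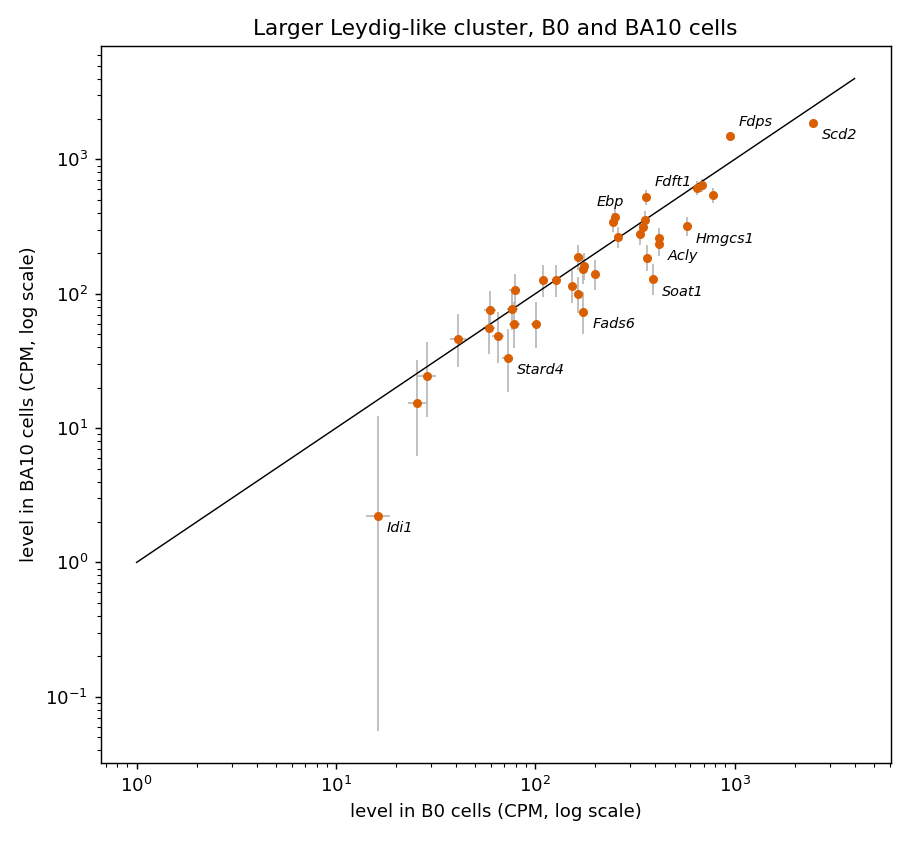
Level of each of the 38 genes in the 2971 cells of B0 and the 45 cells of BA10 in the larger Leydig-like cluster, in CPM on log axes, with 95% counting intervals and a line of equality. Fdps, Fdft1 and Ebp lie above the line, Soat1, Fads6, Stard4 and Idi1 well below it, and most of the others near it.

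BA10 was last compared with A0, the vehicle library without busulfan. Of the 38 genes, 18 were higher past 2-fold in BA10 and 3 were lower, against 14.3% and 15.3% of all tested genes. The median log2 ratio was 0.91 for the 38 genes and 0.36 for all tested genes. Scd2 had 4.24, and Ebp, Msmo1 and Fads1 had 2.63, 2.63 and 2.63. The 3 lower genes were Cyp51 at -2.40, Insig1 at -1.50 and Elovl6 at -1.40, which were the 3 genes with the highest ST-like over SPC-like ratios in A0. ST-like cells made up 64.1% of A0 and 5.06% of BA10, and the part of this share in these ratios was not tested. With 10 CPM added in place of 1 the counts were 2 and 1, against 3.23% and 8.74% of all tested genes, and with ratios centred on the median of all tested genes they were 11 and 5, against 5.09% and 19.7%. At the UMI limit they were again 18 and 3, against 13.9% and 15.4%.

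Within SPC-like cells, 3261 in BA10 and 3193 in A0, fewer genes differed than over whole libraries. The BA10 cells were mostly in clusters 6, 9 and 16, which held no A0 cell, so different clusters stood for the class in A0 and in BA10. There, 8 genes were higher past 2-fold and none was lower, against 3.33% and 6.15% of all tested genes, and the median was 0.29 for the 38 genes and 0.038 for all tested genes. The 8 genes were Scd2, Ebp, Elovl5, Msmo1, Scd1, Fads2, Fads1 and Abca1, with log2 ratios from 1.10 to 2.70. Scd2 was at 0.354 CPM in A0 and 7.78 CPM in BA10. Insl3 in these cells was at 0.455 CPM in A0 and 41.9 CPM in BA10. RNA of the Leydig-like cells of BA10, in the proportion of Insl3, would bring 10.5 CPM of Scd2, 3.83 of Msmo1 and 3.65 of Fads1, beside measured levels of 7.78, 4.05 and 3.14 CPM. It would bring 2.01 of Ebp, 3.18 of Elovl5 and 1.02 of Abca1, below the measured 3.71 (interval 3.30 to 4.15), 4.16 (interval 3.73 to 4.63) and 1.58 CPM (interval 1.31 to 1.87). Over the list, 32 of the 38 genes had intervals above the level so expected and 2 below. The measured level was at or below it for 5 genes, Scd2 and Fads1 among them. How many of the 8 genes stay past 2-fold without that RNA is not given here. The expected levels came from all 118 Leydig-like cells of BA10. Of these, 73 were in the small cluster, with Prm1 at 482 CPM and Sycp3 at 162 CPM. The expected levels therefore hold germ cell RNA too. With that RNA taken off, the median over the 38 genes was -0.068. Fdft1 and Fdps, with 459.9 and 60.2 CPM measured and 5.82 and 8.99 CPM so expected, were far above the expected level.

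The germ cells of B0 itself were few, with 232 SPC-like and 88 ST-like cells, and carried Insl3 at 162 and 186 CPM. In the proportion of Insl3, Leydig RNA of B0 would reach the measured level for 1 of the 38 genes in SPC-like cells. In ST-like cells it would do so for 3. Intervals lay above the level so expected for 31 genes in SPC-like and 27 in ST-like cells. How many genes of B0 over A0 stay past 2-fold without that RNA is not given here. In SPC-like cells of B0 over A0, 23 genes were higher and 2 lower past 2-fold, against 32.6% and 18.2% of all tested genes, with a median of 1.58. The 2 lower genes were Fdft1 at -1.72 and Sqle at -1.47, the same 2 that had not passed 2-fold over whole libraries. Fdft1 was at 367 CPM in SPC-like cells of A0, 111 in those of B0 and 459.9 in those of BA10. In BA10 over B0 these were the 2 genes higher, at 2.04 and 1.12, and 26 were lower, against 14.2% and 32.0%. Most SPC-like cells of B0 were in cluster 27, which held 4 cells of BA10 and none of A0, so each of these ratios sets different clusters side by side.

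Of the 88 ST-like cells of B0, 87 were in cluster 24, which held 2 of the 5731 of A0, so different clusters again stand side by side. In ST-like cells, 25 genes were higher and 1 lower in B0 over A0, against 24.8% and 8.34% of all tested genes, the lower one being Insig1 at -1.84. BA10 over B0 had 1 gene higher and 18 lower, against 6.78% and 16.0%. The higher gene, Npc1, had 0 UMIs in B0 (upper bound 3.38 CPM) and 4 in BA10, counts too few to resolve its ratio. BA10 over A0 had 12 higher and 2 lower, against 9.03% and 5.08%. Scd2 led the higher genes at 3.43, followed by Acat2 at 2.08 and Ebp at 2.07, and the lower ones were Insig1 at -1.21 and Fads6. Fads6 had 0 UMIs in BA10 (upper bound 0.957 CPM) against 2.11 CPM in A0, so no ratio is given for it. Insl3 stood at 56.3 CPM in the 191 ST-like cells of BA10, which lay mostly in cluster 24 with 2 cells of A0. RNA of the same Leydig-like cells of BA10, germ cell RNA included, would in the proportion of Insl3 bring 14.2 CPM of Scd2 there. The measured level was 12.5 CPM (interval 9.18 to 16.5). For Acat2 it would bring 1.33 beside 5.45 CPM, and for Ebp 2.70 beside 5.45 CPM. Intervals lay above the level so expected for 26 of the 38 genes.

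Of 58 other lipid genes listed beside them, 56 were in the table and 47 passed the level filter. None passed 2-fold between A10 and A0. In B0 over A0, 28 were higher and 5 lower, beside 43.5% and 19.9% of all tested genes, with a median log2 ratio of 1.64. The lipogenic regulator Thrsp had 6.71, whereas the acyl-CoA synthetase Acsl1 had -3.56 and Dgat2, of triglyceride synthesis, -2.60. In BA10 over B0, 3 were higher and 26 lower, beside 14.9% and 39.9%, among them Dgat1 at 1.91 and Hacd1 at 1.79 on the one side and Thrsp at -4.93 on the other. In BA10 over A0, 9 were higher and 6 lower, beside 14.3% and 15.3%. The lipoprotein gene Apoe had 2.18, and Acsl1 and the lipase Lipe -3.22 and -2.46.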

How the data were processed

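The authors aligned the 10x Chromium 3′ reads to mm10 with Cell Ranger 2.2.0 and merged the libraries with Seurat, where cells below 200 genes and genes present in fewer than 3 cells were removed. They deposited, per gene and cell, the natural log of 1 plus UMIs per 10000. UMIs were recovered from these values (100% of non-zero values were whole within 0.001). The UMIs of a library or class were summed and scaled to CPM, and log2 ratios have 1 CPM added. Past 2-fold means a log2 ratio of at least 1 in size, over the 13615 genes with a mean of at least 1 CPM over the 4 libraries. All 38 genes passed that filter. Intervals are 95% Poisson intervals for levels and exact conditional binomial intervals for ratios without the added CPM, so a low gene's ratio can lie outside its interval. The ratio and interval were checked on simulated counts with Poisson error only. That check covers the calculation and not the spread between cells or mice. UMIs of 3′ ends are not divided by gene length, so levels were compared within a gene.

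Cells were clustered with scanpy 1.11.5 (Leiden resolution 1, 30 components of 2000 variable genes without the lipid genes, 15 neighbours), giving 29 clusters. A cluster was named from marker genes, and left unnamed where its 10 leading genes held more markers of another class (macrophages in cluster 18, spermatogonia in cluster 21), leaving 845 cells of B0 unnamed. Classes were rebuilt here and differ from those of the study. The study reports a smaller share of spermatids in A0 than the 64.1% of ST-like cells here. Its spermatid share in BA10 is larger than the 5.06% of ST-like cells here. Its Leydig and Sertoli cells are a smaller share of BA10 than the 3.12% of Leydig-like cells here. It also names spermatogonia, a class not named here. Levels are given for classes with at least 50 cells in a library. Scrublet marked 721 and 838 cells of A0 and A10 and 4 and 48 of B0 and BA10 as doublets. In B0 that is under 0.1% of the cells, against an expected rate of 6%, so its calls were not relied on and doublets were kept. Alternatives were another added CPM, other filters on low genes, a UMI limit shared by all libraries, centring, means over cells, removal of called doublets, other clusterings and the subtraction of Leydig RNA in the proportion of Insl3. Promoters came from RefSeq. The 38 genes, the other lipid genes and the markers were chosen with earlier results of these data known. Named genes are those past 2-fold in a comparison or at the highest level of their step in a class (a rule for naming only), and of the other lipid genes the 2 largest rises and falls, except for a result that is not reported here. The mice per library were pooled, and the duration of AOS dosing differs between passages of the study and is not given here.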

Additional observations from a re-analysis of the deposited data

Results flagged for a closer look

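For 6 of the 38 genes, AOS went with opposite directions in the mice without and with busulfan, with both counting intervals off 0. This is a smaller share than the 22.8% of all tested genes, so the count does not set the 38 genes apart. The difference in direction was not tested, because each group is 1 library. Acly had a log2 ratio of 0.17 for A10 over A0 and -4.57 for BA10 over B0, a difference of -4.73. Acat2 had 0.20 and -3.83, a difference of -4.03. Stard4 had 0.16 and -3.13, a difference of -3.29, and Soat1 0.14 and -3.93, a difference of -4.07. For Idi1 the values were 0.40 and -1.53, a difference of -1.92. Fdft1 went the other way, at -0.073 and 0.55, a difference of 0.63. All ratios of A10 over A0 lay within 2-fold. The share of Leydig-like cells moved with these values, from 64.5% in B0 to 3.12% in BA10, and its part was not tested. In cells at or above 9013 UMIs, BA10 over B0 was -1.25 for Acly, -0.53 for Acat2, -0.28 for Stard4, -1.24 for Soat1, -2.03 for Idi1 and 0.43 for Fdft1.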

How the results depend on the processing

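No paired analysis was possible because each group is 1 library. Restricted to cells at or above 9013 UMIs, B0 over A0 had 23 genes higher and 1 lower with a median of 1.71, and BA10 over B0 had 15 lower with a median of -0.82. Ratios past 2-fold that changed sign under this restriction were, for B0 over A0, Fdps (-0.17), Cyp51 (-1.22), Nsdhl (-0.066), Insig1 (-0.65), Scarb1 (-0.022) and Elovl6 (-0.21), where Sqle and Fdft1, not past 2-fold, also changed sign (-0.015 and 0.063), and for BA10 over B0, Mvk (0.34) and Fdps (0.018). With 10 CPM added in place of 1, BA10 over A0 had a median of 0.30, B0 over A0 2.59 and BA10 over B0 -2.79, and in the first of these 2 genes were higher and 1 lower. Centred on the median of all tested genes, the 3 medians were 0.55, 4.03 and -3.41, with 1 gene higher in BA10 over B0 and 11 higher and 5 lower in BA10 over A0. The median of B0 over A0 was 4.61 without a filter, 4.75 with a filter at 10 CPM, 4.91 as a mean over cells and 4.60 without the doublets called, and that of BA10 over B0 was -3.85, -3.79 and -3.84 without a filter, as a mean over cells and without doublets. In Leydig-like cells, BA10 over B0 had a median of -0.27 at resolution 0.5, -1.42 at resolution 2 and -1.42 with 1000 variable genes. In SPC-like cells, BA10 over A0 turned from 0.29 to -0.068 once Leydig RNA was taken off. The Leydig-like cells of BA10 used for this also carried germ cell RNA. Of the single-gene ratios over the 4 comparisons, 96 moved by more than counting error at the UMI limit and 8 more were reversed. With centring 113 moved, and with 10 CPM added 114. The causes were not tested. The lack of replicate libraries limits every difference, the 45 BA10 cells limit that within the larger Leydig-like cluster, and low genes are limited by counts, as with the 8 UMIs of Scd1 in A0.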
